A study of Danio rerio with 6 samples.

Results

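The Bmp, activin and Tgf-beta pathway genes were examined in regenerating zebrafish (Danio rerio) caudal fins after inhibition of Smoothened, the membrane protein that relays the Hedgehog signal. Members were taken by gene symbol: the bmp, gdf, tgfb, inhb, bmpr, acvr, tgfbr, smad, id, nog and grem genes, with chrd, bambia and bambib and without tgfbi. The rule found 79 genes among the 28531 distinct names of the count table, and 68 of them passed the filter on low counts. All 6 libraries came from shha:GFP fish, a reporter line for cells that make the Hedgehog ligand Shha, at 4 days after fin amputation. The BMS group (3 libraries, replicates 2, 3 and 4) had received 40 mg/kg of the Smoothened inhibitor BMS-833923 by injection into the body cavity, in a buffer of 50% PEG-400, 5% propylene glycol and 0.5% Tween-80. The vehicle group (3 libraries, replicates 2, 3 and 4) had received that buffer alone. Fins were taken 5 hours after injection, only the shha:GFP domains and the tissue distal to them were kept, and 4 regenerates were pooled per library. The treatment entries of BMS replicates 3 and 4 carry compound numbers that differ from that of replicate 2, and the 3 libraries were treated as 1 group because the design text names a single compound.

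Bmp, activin and Tgf-beta ligands are secreted dimers that bring together type I and type II receptor kinases, which phosphorylate receptor Smads. Smad1, Smad5 and Smad9 carry the Bmp signal and Smad2 and Smad3 the activin and Tgf-beta signal, each with Smad4 as partner. Noggin, Chordin and Gremlin bind Bmp ligands outside the cell, Bambi is a decoy receptor without a kinase, and Smad6 and Smad7 block the pathway inside the cell. The Id genes, which encode inhibitors of basic helix-loop-helix factors, are widely used as readouts of Bmp signalling. In the zebrafish fin regenerate, bmp2b is known to be transcribed near shha in the epidermis over the growing bony rays, and Bmp signalling is known to promote formation of ray bone.

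Total counts per library lay between 16978747 and 22659275, and a count of 0 allowed a level of at most 0.132 to 0.177 CPM, the usual depth-scaled count, of the total (3 counts, for counting error only). Levels are given as CPM of the TMM-scaled library size and are not per length, so they are compared between libraries and not between genes. The fin labels were borne out by the actinotrichia genes and1 and and2 and the keratin gene krt5, and 4 muscle genes together summed to between 0.119 and 1.44 CPM. The Hedgehog target gene hhip, which encodes an antagonist of the ligand, was at 1.97, 3.99 and 4.16 CPM in BMS replicates 2, 3 and 4, against 15.1, 13.1 and 9.40 CPM in vehicle replicates 2, 3 and 4. The groups did not overlap for 3 of the 4 Hedgehog target genes checked, hhip and gli1 among them (1.76% of all genes). DESeq2 with the replicate number as a block called 3 of the 4 (0.482% of the 14946 genes it gave an adjusted p). It called hhip (adjusted p = 0.000112), which edgeR did not. BMS replicate 2 stood apart on the first principal component, with a TMM factor of 0.779 (0.954 to 1.12 in the other libraries) and 8.30% of its counts in ribosomal protein genes (3.76% to 6.27% in the others).

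No member was called between BMS and vehicle in any fit to all 6 libraries. edgeR's quasi-likelihood test called 0 of 68 members at an adjusted p under 0.05, against 0% of all 18541 genes tested. An unadjusted p under 0.05 was reached by 0 members in that test, against 1.07% of all genes. DESeq2 without the replicate number called 0 members and 0.00539% of all genes. Libraries of the same number deviated together, so the number was also used as a block. With that block edgeR again called 0 members and 0% of all genes. DESeq2 with the block called 0 members and 0.482% of the 14946 genes it gave an adjusted p. It gave no adjusted p to bmp6, bmp7a, gdf11, bmp1b, acvr2ba and acvr2bb, all of low level. In the blocked edgeR fit 6 members (8.82%) had an unadjusted p under 0.05, close to the 7.05% of all genes. Lower were 4 members, inhbab, nog1, nog2 and gdf10a, against 3.96% of all genes, and higher were 2, bmp2a and id2b, against 3.09% of all genes. DESeq2 with the block gave 3 members at an unadjusted p under 0.05, against 5.26% of all genes. Negative log2 fold changes were found for 43 of 68 members (63.2%, against 48.5% of all genes), and the members' median was -0.11, against 0.01 for all genes. Without BMS replicate 4 the members' median turned to 0.01, against 0.04 for all genes. In bulk tissue fewer cells of a type and less RNA per cell cannot be told apart.

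**Figure D1:**
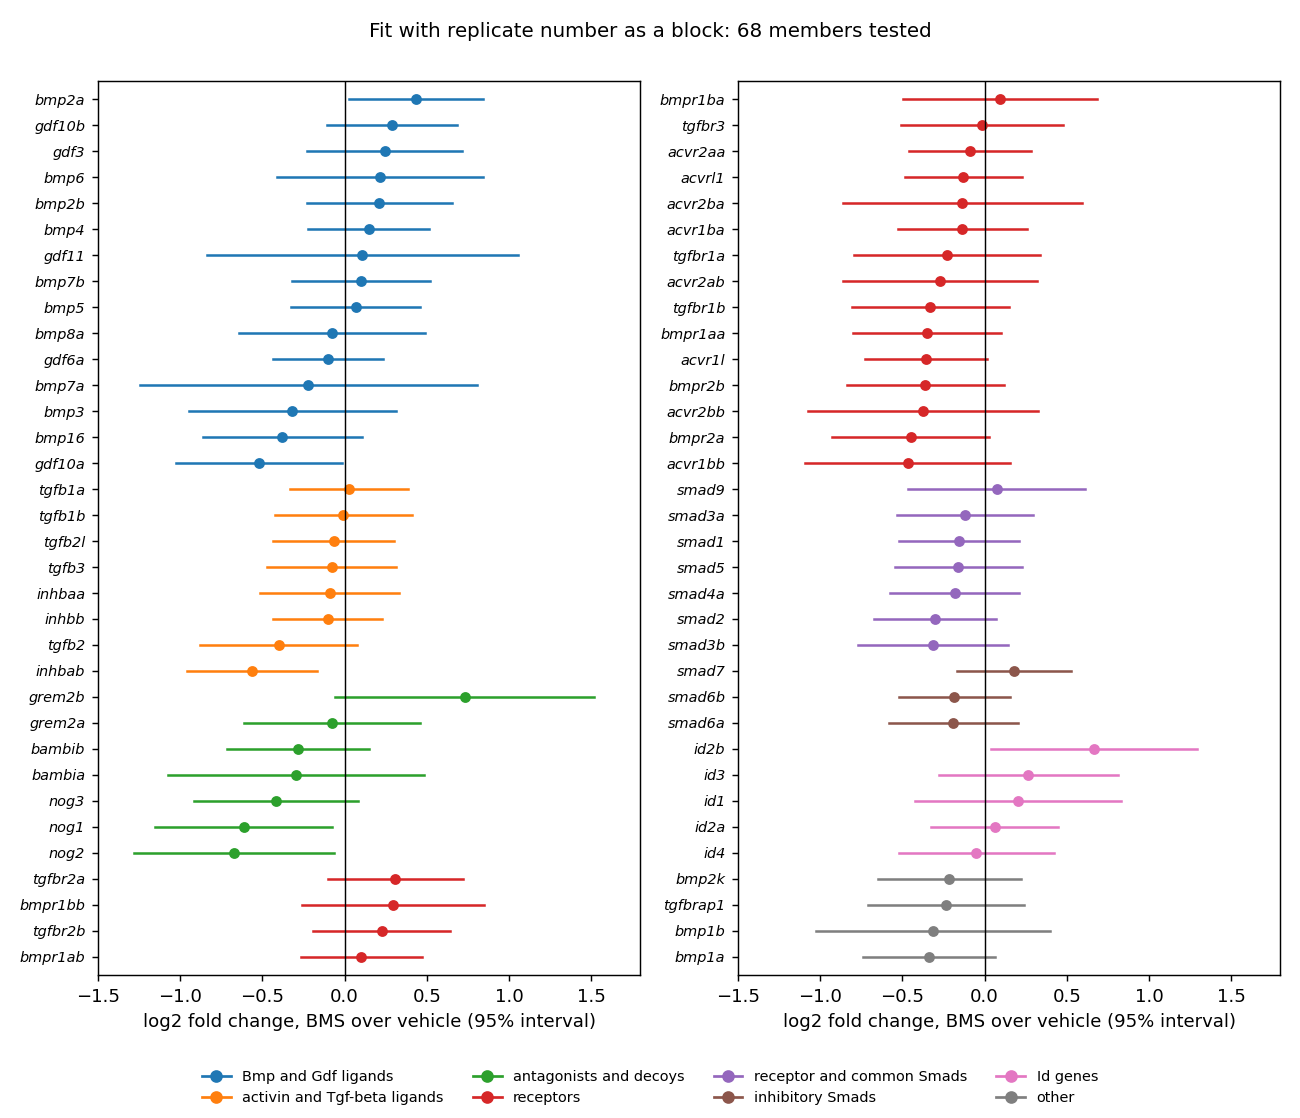
Log2 fold change of BMS over vehicle (horizontal axis) for the 68 members tested, from edgeR's quasi-likelihood fit with the replicate number as a block; points are estimates, bars are 95% intervals and colours mark the roles. The intervals of 6 members leave out 0 before adjustment, and no member passes an adjusted p of 0.05.

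Among the Bmp and Gdf ligands, 15 of 23 genes were tested, with 5 negative and 10 positive values and a median log2 fold change of 0.09. That median was -0.07 without BMS replicate 2, -0.04 without vehicle replicate 4 and -0.02 with total-count scaling. The ligand gene bmp2a was at 37.0, 28.0 and 19.6 CPM in BMS replicates 2, 3 and 4, against 22.1, 24.7 and 15.04 CPM in vehicle replicates 2, 3 and 4. It was higher in BMS in each same-number pair, while the groups overlapped because both number 4 libraries were low. The blocked log2 fold change of bmp2a was 0.43 (95% interval 0.03 to 0.84, edgeR adjusted p = 0.687). Its paralogue bmp2b was at 25.3, 16.4 and 17.4 CPM in BMS, against 16.7, 17.7 and 15.7 CPM in vehicle. Only BMS replicate 2 lay above the vehicle range of bmp2b, and the blocked value was 0.21 (-0.23 to 0.65). For bmp4 the levels were 28.8, 37.8 and 22.3 CPM in BMS and 29.7, 32.7 and 18.5 CPM in vehicle. The groups overlapped for bmp4, with number 3 highest and number 4 lowest in each group, and its blocked value was 0.15 (-0.22 to 0.52).

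The dorsal eye patterning ligand gene gdf6a and the ligand gene gdf10a were the ligands whose BMS libraries all lay below the vehicle libraries. Including the inhibitory Smad gene smad6b, this held for 3 of 68 members (4.41%, against 1.76% of all genes), and 0 members had all BMS libraries above the vehicle libraries (2.16% of all genes). For gdf10a the levels were 8.25, 9.80 and 10.7 CPM in BMS, against 16.7, 14.1 and 11.1 CPM in vehicle. The nearest libraries, both of number 4, were almost level, and the blocked log2 fold change of gdf10a was -0.52 (-1.02 to -0.02, edgeR adjusted p = 0.687). The levels of gdf6a were 51.3, 52.3 and 53.9 CPM in BMS and 54.5, 59.7 and 55.1 CPM in vehicle. It averaged 52.5 ± 1.31 CPM in BMS and 56.4 ± 2.83 CPM in vehicle (SD, n = 3 each), and the blocked value of -0.10 had an interval of -0.44 to 0.23. The paralogue gdf10b was higher in BMS in each pair, at 15.4, 11.1 and 13.6 CPM in BMS and 12.8, 9.16 and 10.9 CPM in vehicle. The difference between gdf10a and gdf10b was not tested.

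Of the remaining Bmp ligands, bmp7b was at 46.3, 22.3 and 14.8 CPM in BMS and 33.0, 24.2 and 15.6 CPM in vehicle. It differed more between replicate numbers than between treatments. The level of bmp6 was low, at 1.74, 2.38 and 2.02 CPM in BMS and 1.51, 1.77 and 1.98 CPM in vehicle. It was higher in each pair, with a blocked value of 0.22 (-0.41 to 0.84). Across all members, 9 were higher in each of the 3 pairs (13.2%, against 14.1% of all genes), and 5 of them were Bmp or Gdf ligands: bmp2a, bmp5, bmp6, gdf3 and gdf10b. Lower in each pair were 17 members (25%, against 17.5% of all genes), among them gdf6a, gdf10a and bmp16. The 8 ligand genes not tested, bmp10, bmp10l, bmp15, gdf2, gdf5, gdf6b, gdf7 and gdf9, had counts of 0 to 11 in each library.

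**Figure D2:**
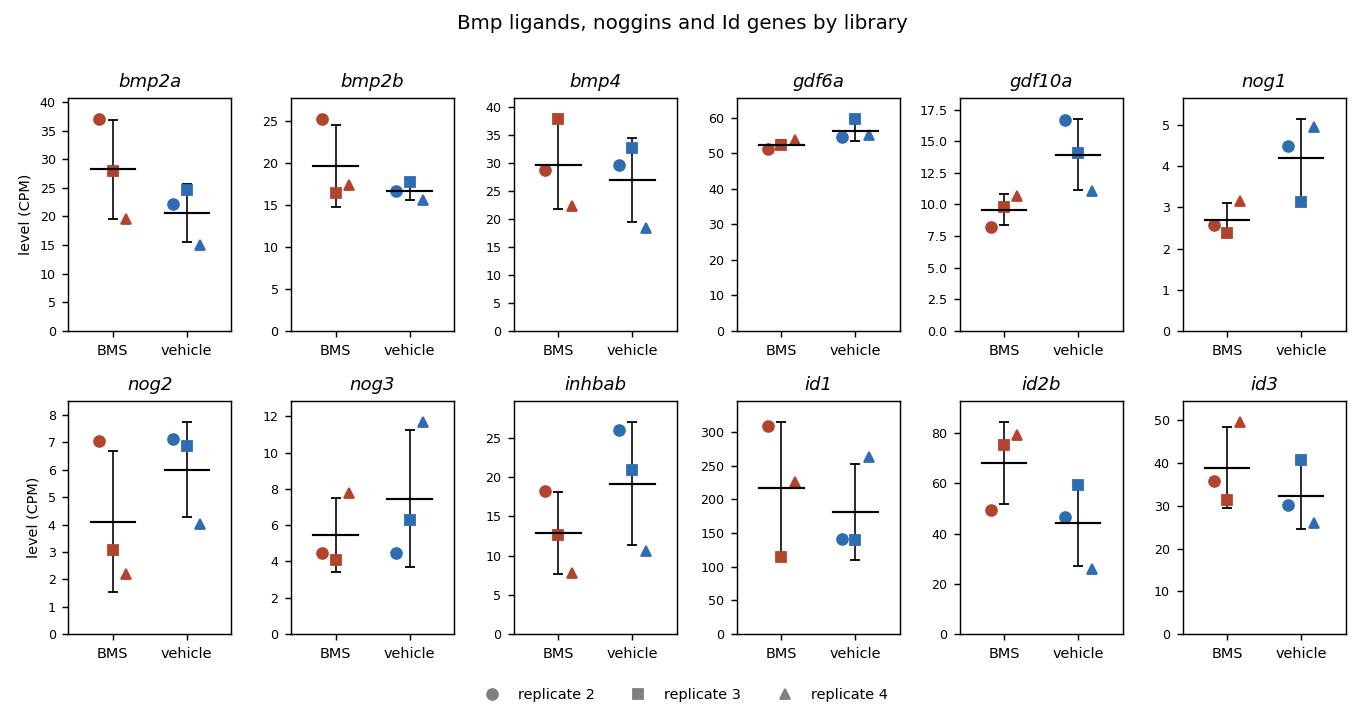
Levels in CPM (vertical axes, from 0) of 12 members in the BMS and vehicle libraries; symbols mark replicate numbers, horizontal bars the mean and whiskers the SD of 3 libraries. The groups overlap for every gene shown apart from gdf6a and gdf10a, and BMS replicate 2 is the highest library for bmp2a, bmp2b and id1.

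Of the activin, inhibin and Tgf-beta ligand genes, 8 of 8 were tested and 6 values were negative, with a median of -0.03. The gene inhbab, which encodes an activin beta A subunit, was at 18.2, 12.6 and 7.84 CPM in BMS, against 26.0, 20.9 and 10.6 CPM in vehicle. It was lower in each pair, by -0.50, -0.70 and -0.42 log2 units in pairs 2, 3 and 4, and the groups overlapped. The blocked log2 fold change of inhbab was -0.56 (-0.96 to -0.17), and its adjusted p of 0.629 by edgeR was the lowest among the members in that fit. The paralogue inhbaa, whose product is known to be needed for fin regeneration in zebrafish, was at 71.7, 36.2 and 22.6 CPM in BMS and 56.1, 48.4 and 26.1 CPM in vehicle. Number 2 was highest and number 4 lowest in each group, and the blocked value was -0.09 (-0.51 to 0.33). Whether inhbab and inhbaa differ in response was not tested.

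The Tgf-beta ligand gene tgfb1a was nearly level, at 175, 205 and 174 CPM in BMS and 187, 186 and 169 CPM in vehicle. Its blocked value was 0.03 (-0.33 to 0.39). The gene tgfb3 followed inhbaa over the libraries, at 79.5, 40.2 and 28.5 CPM in BMS and 66.2, 52.5 and 30.8 CPM in vehicle, with a blocked value of -0.08 (-0.47 to 0.32). For tgfb2l the levels were 139.6, 134 and 89.5 CPM in BMS and 131, 129 and 114 CPM in vehicle. The activin beta B gene inhbb was at 59.7, 64.6 and 79.1 CPM in BMS and 63.6, 66.5 and 89.0 CPM in vehicle. Both of these overlapped between groups, with blocked intervals of -0.44 to 0.30 for tgfb2l and -0.43 to 0.23 for inhbb.

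Of 10 antagonist and decoy genes 7 were tested, 6 with negative values, and their median log2 fold change was -0.31, with 0 called. That median was -0.15 without BMS replicate 3, 0.026 without vehicle replicate 4 and -0.51 with total-count scaling. The noggin gene nog1 was at 2.57, 2.38 and 3.15 CPM in BMS, against 4.49, 3.12 and 4.96 CPM in vehicle. BMS replicate 4 reached just above the lowest vehicle library for nog1, and the blocked value was -0.61 (-1.15 to -0.07, edgeR adjusted p = 0.687). The second noggin gene nog2 was at 7.04, 3.09 and 2.18 CPM in BMS, against 7.12, 6.88 and 4.01 CPM in vehicle. Its libraries of number 2 were level, and those of numbers 3 and 4 were lower in BMS by -1.04 and -0.75 log2 units. The blocked value of nog2 was -0.67 (-1.28 to -0.06, edgeR adjusted p = 0.687). For nog3 the levels were 4.47, 4.09 and 7.80 CPM in BMS and 4.44, 6.29 and 11.7 CPM in vehicle, with a blocked value of -0.42 (-0.91 to 0.08). Pair 2 was again level for nog3.

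The decoy receptor gene bambia differed in direction between pairs. Its levels were 228, 95.3 and 164 CPM in BMS and 123, 162 and 320.4 CPM in vehicle, so that BMS was higher in pair 2 (0.89 log2 units) and lower in pairs 3 and 4 (-0.76 and -0.96). The blocked value was -0.30 (-1.07 to 0.48). Its paralogue bambib had the same pattern with smaller steps, at 115, 81.5 and 123 CPM in BMS and 99.6, 116 and 179 CPM in vehicle. The Gremlin gene grem2b was the one tested gene of the class with a positive value. It was at 17.03, 3.00 and 4.08 CPM in BMS and 5.42, 3.67 and 2.50 CPM in vehicle, and BMS replicate 2 alone lay above the vehicle range by a wide margin. Chordin was hardly detected: chrd had 5 to 7 counts per BMS library and 5 to 13 per vehicle library, and did not pass the filter. The Gremlin genes grem1a, with at most 1 count per library, and grem1b, with 2 to 18 counts per BMS library and 2 to 4 per vehicle library, did not pass either.

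All 19 receptor genes were tested, with 13 negative and 6 positive values, a median of -0.11 and 0 called. Their direction changed when BMS replicate 2 was left out. The type I Bmp receptor gene bmpr1aa was at 24.3, 55.9 and 55.1 CPM in BMS, against 45.4, 56.8 and 61.6 CPM in vehicle. The BMS libraries of numbers 3 and 4 lay inside the vehicle range for bmpr1aa, and its log2 fold change of -0.27 in the fit without the block turned to 0.036 without BMS replicate 2. The activin type I receptor gene acvr1ba was at 56.8, 93.8 and 90.4 CPM in BMS and 81.4, 87.8 and 90.0 CPM in vehicle. Its value in the fit without the block was 0.10 without BMS replicate 2, against -0.10 with all libraries. The endothelial type I receptor gene acvrl1 was at 143, 129 and 88.7 CPM in BMS and 140.2, 138 and 111 CPM in vehicle, with a blocked value of -0.13 (-0.48 to 0.23). The 6 vessel and blood markers summed to 126, 115 and 87.7 CPM in BMS and to 249, 174 and 54.7 CPM in vehicle, and haemoglobin genes made up much of that sum. Of the vessel genes, kdrl was at 14.4, 16.98 and 10.3 CPM in BMS and 22.9, 18.7 and 13.0 CPM in vehicle, fli1a was lower in BMS in each pair, and pecam1 had a positive log2 fold change of 0.56. The part of these markers in acvrl1 was not tested. Within pair 2, 14 of 19 receptor genes were lower in BMS (50% of all genes), with a median of -0.32 log2 units. In pair 3 this held for 7 (51% of all genes) and in pair 4 for 13 (56.4% of all genes), with medians of 0.09 and -0.16. Without BMS replicate 2 the receptor median was 0.10, with 5 of 19 values negative, and it was -0.41 without BMS replicate 3, -0.037 without BMS replicate 4, -0.22 without vehicle replicate 2 and -0.00098 without vehicle replicate 3. BMS replicate 2 also had the highest share of ribosomal protein counts, and the part of this in the receptor values was not tested.

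**Figure D3:**
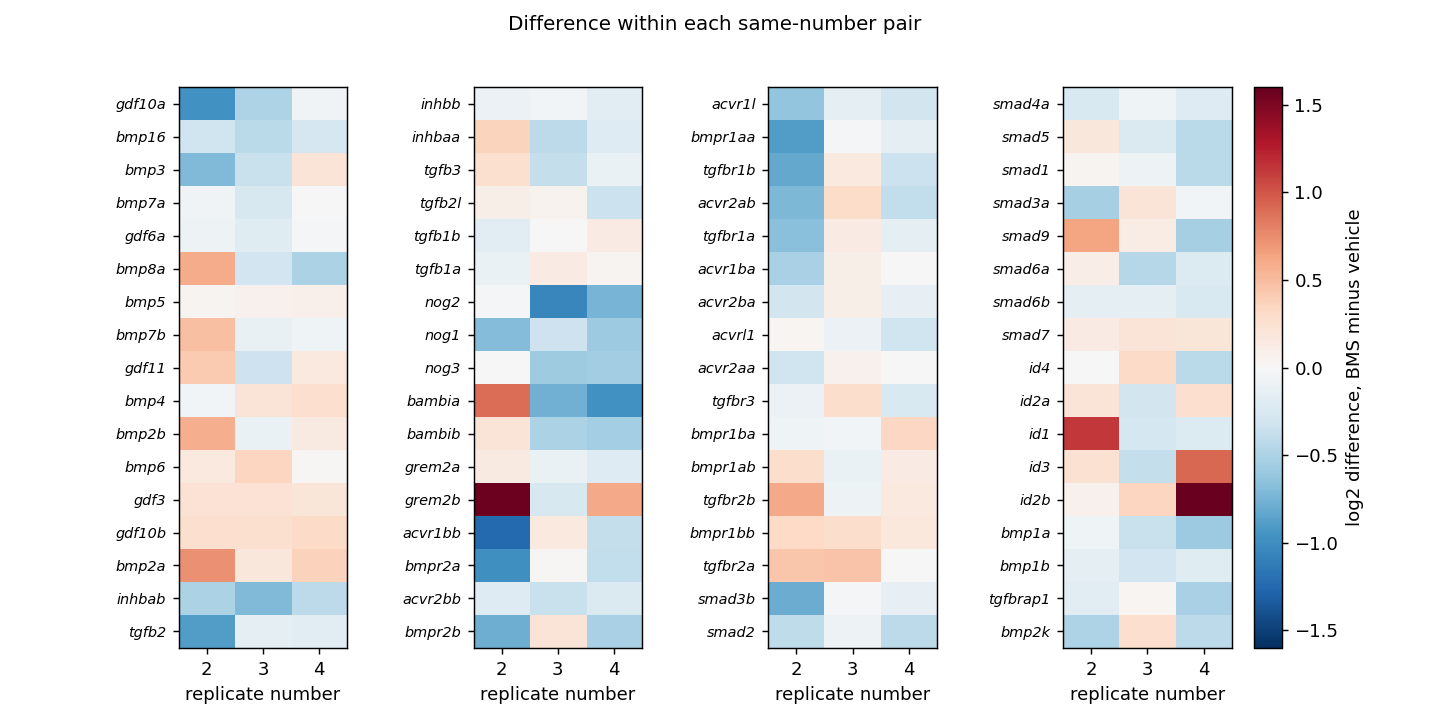
Log2 difference, BMS minus vehicle, of each tested member (rows, ordered by role) within the same-number pairs 2, 3 and 4 (columns); red is higher and blue lower in BMS, on CPM with 0.5 added. Several type I and type II receptor genes are deepest blue in pair 2, bambia and bambib change colour between pairs, and the strongest red cells belong to grem2b in pair 2 and id2b in pair 4.

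The receptor and common Smad genes had negative values in 6 of 7 cases, with a median of -0.11. Without BMS replicate 4 the median was 0.014, with 3 of 7 values negative. It was -0.26 without BMS replicate 2, -0.36 without BMS replicate 3, -0.025 without vehicle replicate 3 and -0.30 without vehicle replicate 4. The Bmp Smad genes smad1 and smad5 were at 91.7, 79.0 and 44.3 CPM and at 94.0, 61.7 and 33.8 CPM in BMS. In vehicle they were at 88.7, 83.7 and 60.0 CPM and at 82.5, 72.4 and 45.7 CPM. Both genes were lowest in the number 4 libraries of each group, and their blocked values were -0.16 (-0.52 to 0.21) for smad1 and -0.16 (-0.55 to 0.23) for smad5. The gene smad3a, of the activin and Tgf-beta branch, was at 30.3, 57.7 and 40.0 CPM in BMS and 44.1, 49.7 and 41.3 CPM in vehicle. Its BMS libraries lay on both sides of the vehicle range, and the blocked value was -0.12 (-0.53 to 0.30).

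Of the 3 inhibitory Smad genes, 2 had negative values and 1 a positive value. For smad6b the levels were 42.5, 41.1 and 35.8 CPM in BMS, against 47.1, 45.7 and 42.5 CPM in vehicle. Before rounding, the highest BMS library was just under the lowest vehicle library, and the blocked value of smad6b was -0.18 (-0.52 to 0.15). The paralogue smad6a was at 38.8, 26.7 and 28.7 CPM in BMS and 35.8, 36.7 and 33.5 CPM in vehicle, with overlap through BMS replicate 2. Its blocked value was -0.19 (-0.58 to 0.20). In contrast smad7, which encodes the inhibitor of both branches, was higher in BMS in each pair, at 43.1, 38.8 and 27.2 CPM, against 39.3, 33.4 and 23.8 CPM in vehicle. The step was small beside the spread between numbers, and the blocked value of smad7 was 0.18 (-0.17 to 0.53).

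The Id genes had positive values in 4 of 5 cases and a median of 0.26, with 0 called. That median was 0.40 without BMS replicate 3, 0.053 without BMS replicate 4, 0.10 without vehicle replicate 2, 0.098 without vehicle replicate 3 and 0.075 with total-count scaling. With the block it was 0.20 over all libraries. Without both libraries of number 2 the blocked median was 0.013, with 2 of 5 values negative, and without both of number 3 it was 0.43. The gene id2b was at 49.3, 75.4 and 79.3 CPM in BMS, against 46.8, 59.5 and 26.1 CPM in vehicle. It was higher in each pair, by 0.07, 0.34 and 1.59 log2 units in pairs 2, 3 and 4, so most of the difference came from the low level in vehicle replicate 4. The blocked log2 fold change of id2b was 0.67 (0.04 to 1.29, edgeR adjusted p = 0.687), and it was 0.21 without both libraries of number 4. The most used readout, id1, was at 309, 115 and 227 CPM in BMS and 141, 139 and 263 CPM in vehicle. Only BMS replicate 2 lay above the vehicle range of id1, and pairs 3 and 4 were lower in BMS by -0.28 and -0.22 log2 units. The blocked value of id1 was 0.20 (-0.43 to 0.83), and without both libraries of number 2 it was -0.23.

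The gene id2a was at 87.4, 84.6 and 153 CPM in BMS and 75.9, 103 and 127 CPM in vehicle, with the number 4 library highest in each group and a blocked value of 0.06 (-0.32 to 0.45). For id3 the levels were 35.9, 31.3 and 49.5 CPM in BMS and 30.2, 40.8 and 26.0 CPM in vehicle. BMS replicate 4 was the highest and vehicle replicate 4 the lowest library for id3, pair 3 went the other way, and the blocked value was 0.27 (-0.28 to 0.81). Without both libraries of number 3, edgeR with the block called 2 members, id2b (log2 fold change 0.81 ± 0.23 SE, adjusted p = 0.0302) and grem2b (1.17 ± 0.31, adjusted p = 0.0177). That fit called 2.11% of all genes, so 2 of 68 members (2.94%) was near the background. Only numbers 2 and 4 remained in that fit, so its SE and p rest almost wholly on the spread shared over all genes.

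The genes that share a symbol with the family but encode no ligand, receptor or Smad had negative values in 4 of 4 cases, with a median of -0.23. Without BMS replicate 4 the median was 0.046, with 1 of 4 values negative, and without vehicle replicate 2 it was -0.047, with 3 of 4 negative. The gene bmp1a encodes a Tolloid-type metalloproteinase that trims procollagens and can cut Chordin. It was at 364, 244 and 91.7 CPM in BMS and 381, 314 and 138 CPM in vehicle, lower in each pair, with a blocked value of -0.34 (-0.74 to 0.07). The kinase gene bmp2k was at 38.4, 59.7 and 27.5 CPM in BMS and 54.5, 49.3 and 36.8 CPM in vehicle. The receptor-associated protein gene tgfbrap1 was at 5.83, 9.56 and 5.50 CPM in BMS and 6.64, 9.33 and 8.09 CPM in vehicle. Both were higher in BMS in pair 3 and lower in the other pairs.

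More members were called for replicate number than for treatment. In the blocked edgeR fit the number term was called for 18 of 68 members (26.5%, against 19.1% of all genes), where the treatment term was called for 0. This test was chosen after the values were seen. The number became a block because same-number libraries deviated together here, so its calls are no separate support for the pairing. The calls rest on the scaling: with total-count scaling the number term was called for 0 members and 0 genes at an adjusted p under 0.05, while 37 members had an unadjusted p under 0.05 (43.2% of all genes). With TMM scaling 36 members did (42.2% of all genes), and with RLE scaling 14 members were called. Without both libraries of number 4 the count fell to 8. The library with the highest level had the same replicate number in both groups for 47 of 68 members (69.1%, against 62.4% of all genes).

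Most called members fell into a pair of patterns, described after their levels were seen. Highest in number 2 and lowest in number 4 of each group were inhbaa, inhbab, tgfb3, bmp7b, bmp8a, bmp1a, smad1, smad5 and tgfbr2a. Averaged over both groups, inhbaa was at 63.9, 42.3 and 24.3 CPM in numbers 2, 3 and 4, and bmp1a at 373, 279 and 115 CPM. Highest in number 3 of each group were smad2, the type II receptor genes bmpr2a and bmpr2b, the type I receptor genes tgfbr1b and acvr1bb, and tgfbr3, which encodes a co-receptor. The level of bmpr2b was 19.1, 74.6 and 27.8 CPM in BMS and 33.1, 64.4 and 40.0 CPM in vehicle, and that of acvr1bb was 4.24, 20.1 and 9.46 CPM in BMS and 10.7, 17.9 and 12.4 CPM in vehicle. The number 3 libraries stood above all others for both genes. The remaining called members were nog3, highest in number 4 of each group, grem2b, highest in number 2 of each group, and acvr2bb, a low gene whose highest library was of number 4 in BMS and number 3 in vehicle.

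**Figure D4:**
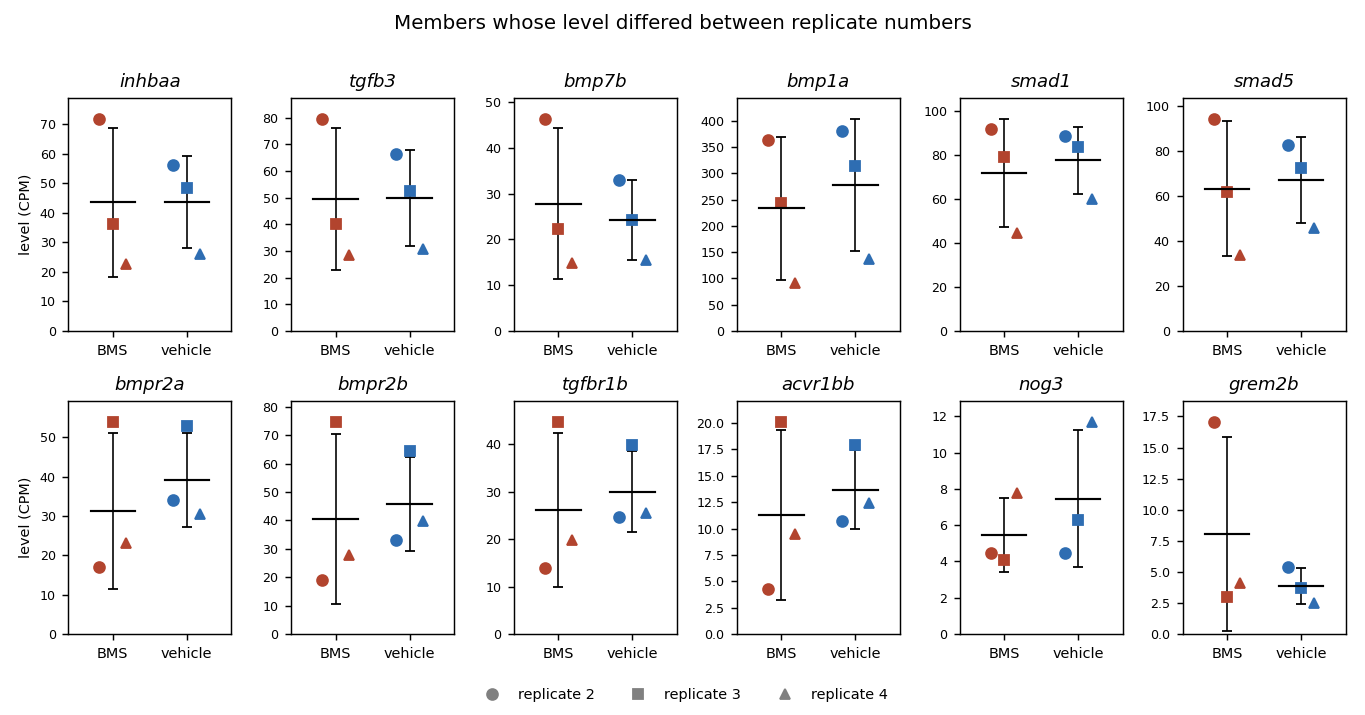
Levels in CPM (vertical axes, from 0) of 12 members called for the replicate number term; symbols mark replicate numbers, horizontal bars the mean and whiskers the SD of 3 libraries. Squares (number 3) are highest in both groups for bmpr2a, bmpr2b, tgfbr1b and acvr1bb, and triangles (number 4) are lowest in both groups for inhbaa, tgfb3, bmp7b, bmp1a, smad1 and smad5.

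Summed tissue markers and the ribosomal share also differed between numbers. The 8 mesenchyme and actinotrichia markers summed to 10540, 5022 and 2662 CPM in BMS replicates 2, 3 and 4, and to 9514, 6995 and 3226 CPM in vehicle replicates 2, 3 and 4. The 6 basal epidermis markers summed to 28749, 19453 and 13962 CPM in BMS and to 23238, 20567 and 16147 CPM in vehicle. Both sums were highest in number 2 and lowest in number 4 of each group, as inhbaa, tgfb3 and smad5 were. The sums were mostly those of and1 and and2 and of krt5, and other markers of the lists had other orders: msx1b was highest in number 4 of each group, fras1 was highest in number 3 of each group, and fermt1 was nearly level, at 40.7 to 46.8 CPM over all libraries. Ribosomal protein genes took 3.76% and 4.10% of counts in BMS and vehicle replicate 3, the lowest shares of each group, where bmpr2a and bmpr2b were highest. The part of these differences in the pathway genes was not tested. Superficial and intermediate epidermis markers, 7 of 7 with positive values and a median of 0.31, ranged from 7035 to 11495 CPM in BMS and from 6038 to 8455 CPM in vehicle. No marker list used here had a gene at 0 in all libraries.

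Of a list of 56 other genes of these pathways, outside the symbol rule, 47 were matched to a row of the count table and 39 were tested. Of these 39, 20 were negative and 19 positive, with a median of -0.01. edgeR without the block called 0 of them (0% of all genes), and 0 had an unadjusted p under 0.05 (1.07% of all genes). With the block edgeR called 0% of all genes. The share of the 39 at an unadjusted p under 0.05 in that fit was above the 7.05% of all genes. These genes went in both directions, with bmper, rgma, rgmb, sost and ltbp1 lower, and tob1a, tob1b and mstnb among those higher. The excess over all genes was not tested. DESeq2 with the block called 1 of the 39 (0.482% of the 14946 genes it gave an adjusted p). The gene tob1b, which encodes an antiproliferative protein known in mammals to bind Smads, was above vehicle in every BMS library. It was at 307, 345 and 269 CPM in BMS, against 253, 208 and 72.8 CPM in vehicle, and did not pass (DESeq2 with the block, adjusted p = 0.0638).

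All BMS libraries lay below all vehicle libraries for 2 of 39 tested genes of that list, against 1.76% of all genes. They lay above for 2, tob1b among them, against 2.16% of all genes. The Bmp-binding regulator gene bmper was at 6.96, 6.47 and 3.76 CPM in BMS and 11.2, 9.03 and 7.74 CPM in vehicle, with a blocked value of -0.73 (-1.20 to -0.26). The Bmp co-receptor gene rgmb was at 8.33, 7.89 and 5.86 CPM in BMS and 10.7, 11.8 and 10.1 CPM in vehicle, with a blocked value of -0.58 (-1.01 to -0.14). Neither passed (DESeq2 with the block, adjusted p = 0.506 for bmper and 0.701 for rgmb).

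The size of change that these libraries leave possible follows from the intervals. In the blocked edgeR fit, 57 of 68 members had a 95% interval between -1 and 1 log2 units, as did 14184 of all 18541 genes tested. The main fit, without the block, gave wider intervals, and fewer members stayed between -1 and 1 there. In that fit the interval was -1.49 to 0.33 for inhbab, -0.27 to 1.17 for bmp2a and -0.66 to 1.18 for id1. A p that misses the threshold does not show that levels were the same. The blocked intervals are wide against the median absolute blocked value of 0.22 log2 units among the members and 0.20 among all genes. For comparison, hhip had a blocked value of -1.87 (-2.58 to -1.15).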

How the data were processed

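RNA was sequenced from 6 pools of fin tissue. The authors deposited whole-number counts per gene row. The submitters' processing notes name the build GRCz11, the aligners Bowtie2 2.33 and TopHat2 2.1.1, edgeR 4.3.2 and HTSeq 0.6.1, without saying which made the counts. Annotation and strand setting are not given in the sources read, so antisense overlaps and close paralogues are uncertain. A deposited normalized table was not used.

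All 31901 rows were fitted together. Where rows shared a symbol, the highest mean count decided the member (grem1a had 2 rows). The main test was two-sided and ran in R 4.3.3 with limma 3.58.1 and edgeR 4.0.16: the quasi-likelihood F test with treatment alone in the model, TMM scaling, filterByExpr and robust fitting. P-values were adjusted after Benjamini and Hochberg over 18541 rows, with a threshold of 0.05. Alternatives were DESeq2 1.42.0, the replicate block, other scalings and filters, and leaving out libraries. Pair differences used CPM with 0.5 added. Pools, not single fish, are named in the labels. Without the block, p-values measure the spread between pools of a group. With the block, they measure the spread left between pools after differences shared by a replicate number are taken out. No 2 libraries of a group were duplicates by their counts (chi-square divided by its degrees of freedom at least 32.9).

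The replicate numbers come from the sample titles. Deviations from group means correlated across genes at 0.633, 0.621 and 0.677 between BMS and vehicle libraries of numbers 2, 3 and 4, and at -0.551 to -0.193 in the remaining combinations. Each of the 3 same-number values exceeded 0.1, and the numbers were therefore used as pairs, a reading from these libraries. Deviations sum to 0 within each group, so the negative values follow in part from the positive ones and are no separate support.

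The members and lists were chosen with earlier results of these data known. Named members were the 3 with most reads in each role class, those without overlap between groups, those at an unadjusted p under 0.05 in either edgeR fit, and a list of fin regeneration genes. Others were chosen after their values were seen. Some genes of the further lists are not reported here. Marker lists gave median log2 fold changes of -0.01 for mesenchyme, -0.13 for osteoblast, 0.02 for basal epidermis, -0.40 for vessel and blood, 0.09 for immune and 0.27 for pigment cells, with 0 called by edgeR in each; 0 of 4 muscle markers were tested.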

Additional observations from a re-analysis of the deposited data

How the results depend on the processing

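No member was called under any alternative that kept all 6 libraries. Members at an unadjusted p under 0.05 numbered 0 without the replicate block, 6 with it in edgeR, 3 in DESeq2 with the block, 1 without a filter, and, in alternatives added after seeing the data, 9 with total-count scaling and the block and 6 with RLE scaling and the block. Genes called overall numbered 0 in edgeR, 1 in DESeq2 without the block and 72 with it. Leaving out libraries gave 0 to 2 called members, 0 to 16 at an unadjusted p under 0.05, 0 to 392 genes called and a median of -0.17 to 0.0092; the highest counts came without both libraries of number 3. The number term was called for 0 members with total-count scaling, and for 8 to 27 when a number was left out. Total-count scaling set the median of all genes at -0.10 (-0.13 with the block) and that of members at -0.20.

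Of 34 named members tested, 13 had the same sign in every setting in which they were tested (19, or 18 for nog1, nog2 and bmp6, which the 8 CPM filter removed) and 21 turned in at least 1. Under total-count scaling tgfb1a was -0.069 (-0.092 with the block) and id2a -0.0033 (-0.057 with the block); bmp7b was -0.019 with total-count scaling and the block, and tgfb1a -0.020 without a filter. Over the fits that left out libraries, log2 fold changes ran as follows. Ligands ran from -0.058 to 0.11 for tgfb1a, -0.16 to 0.13 for tgfb2l, -0.23 to 0.058 for inhbb, -0.53 to 0.26 for tgfb3, -0.57 to 0.31 for inhbaa, -0.082 to 0.30 for bmp4 and -0.39 to 0.50 for bmp7b. Antagonists and receptors ran from -0.85 to 0.19 for bambia, -0.81 to 0.026 for nog3, -0.25 to 0.068 for acvrl1, -0.28 to 0.10 for acvr1ba and -0.55 to 0.036 for bmpr1aa. Smad genes ran from -0.33 to 0.14 for smad1, -0.49 to 0.22 for smad5, -0.36 to 0.12 for smad3a and -0.0040 to 0.34 for smad7. The rest ran from -0.23 to 0.62 for id1, -0.25 to 0.27 for id2a, -0.070 to 0.57 for id3, -0.74 to 0.13 for bmp1a and -0.51 to 0.066 for bmp2k. The cause of these turns was not tested.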
